A study of Mus musculus with 8 samples.

Results

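The 10 secreted immune regulators examined here were measured in Lewis lung carcinoma (LLC) cells with and without Argonaute 2 (Ago2), the small RNA-guided silencing protein. They are the colony-stimulating factors Csf1, Csf2 and Csf3, the interleukin genes Il6, Il11, Il15, Il1a and Il33, and the cytokine genes Lif and Tslp. These 10 of the 55487 genes in the count table were chosen by symbol, by a rule that uses no measured value, although earlier results of these data were known. Of the 10, 6 passed the filter on low counts and were tested among 14228 genes, and 4 (Il6, Il1a, Csf2 and Csf3) did not pass.

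LLC is a mouse lung carcinoma line from the C57BL background, and the libraries are bulk RNA-seq of cells grown in DMEM with fetal bovine serum. There were 4 libraries of wild-type LLC cells and 4 of LLC cells with an Ago2 knock-out, called ΔAgo2, and all 8 carry the same batch label. The knock-out was made with a lentiviral CRISPR-Cas9 vector under puromycin selection, followed by sorting of single cells to derive clones. The sources used here do not say which clone gave the ΔAgo2 libraries, nor whether wild-type cells received a control vector, so the knock-out and a difference between clones cannot be told apart. The labels call the libraries of a group biological replicates without saying that they were separate cultures, so p-values measure the spread between these libraries, which may be technical. The difference between libraries, as chi-square per gene, was 22.8 for ΔAgo2 replicates 1 and 2. Other ΔAgo2 pairs had 91.4 to 126 and wild-type pairs 350 to 1560. The median SD of log2 expression was 0.78 in wild-type and 0.23 in ΔAgo2 libraries, while the fit gave each gene the same dispersion in both.

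Colony-stimulating factors drive the growth and survival of myeloid cells: Csf1 encodes M-CSF for macrophages, Csf2 encodes GM-CSF and Csf3 encodes G-CSF for granulocytes. Interleukin-6, interleukin-11 and LIF signal through the shared receptor chain gp130 to STAT3. Interleukin-1α and interleukin-33 are members of the interleukin-1 family that are released from damaged cells, interleukin-15 sustains natural killer and memory T cells, and TSLP acts on dendritic cells and type 2 lymphocytes. Many cytokine mRNAs are short-lived because proteins bind AU-rich elements in their 3′ untranslated regions.

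Total counts ran from 39628101 to 68530912 per library. Wild-type replicate 4 stood apart, with 0.54% of its counts on mitochondrial genes against 2.39 to 4.51% in the other 7 libraries. Its log2 expression, relative to the mean of the remaining wild-type libraries, rose with transcript GC content across genes (Spearman's rho 0.722). The same measure, each library against the rest of its genotype, ran from -0.509 to 0.336 in the others. For the other wild-type libraries that mean includes replicate 4, so their values are not independent of it. Ago2 transcript was present in both genotypes, at 67.34, 75.22, 126.76 and 18.86 TPM (counts scaled by gene length and library total) in wild-type and 104.48, 75.72, 98.44 and 79.59 TPM in ΔAgo2 libraries. The groups overlapped (log2 fold change 0.21, SE 0.40, adjusted p = 0.908), and gene counts do not read a small CRISPR edit, so this value does not check the labels. Of 7 leukocyte markers, 4 (Ptprc, Adgre1, Itgam and Cd3e) were at or under 3 counts in every library, and the summed TPM of the list, mostly Cd68, ran from 18.2 to 101 in wild-type and 15.2 to 46.1 in ΔAgo2 libraries. The epithelial marker Epcam and all 4 lung epithelial markers were also at or under 3 counts throughout, while the epithelial list, mostly Krt8 and Krt18, summed to 246 to 1670 TPM in wild-type and 730 to 1130 TPM in ΔAgo2 libraries. In bulk RNA, fewer cells of a type and less RNA per cell cannot be told apart.

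The promoters of the 3 most abundant of these cytokines are shown because they carry letters of known inducible motifs. Each is RefSeq sequence of GRCm38.p6, from 250 bases before to 50 bases after a start that RefSeq annotates, written 5′ to 3′ on the gene's strand. Capitals mark the kappaB motif in Csf1 and the AP-1 motif (TGANTCA, both strands searched) in Il11 and Lif.
Csf1, chr3:107760420-107760719, minus strand: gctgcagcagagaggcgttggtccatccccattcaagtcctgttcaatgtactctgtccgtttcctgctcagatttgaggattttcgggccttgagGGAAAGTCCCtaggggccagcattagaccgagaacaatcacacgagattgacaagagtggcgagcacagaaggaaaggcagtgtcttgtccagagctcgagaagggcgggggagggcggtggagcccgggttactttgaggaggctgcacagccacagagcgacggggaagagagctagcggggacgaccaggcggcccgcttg
Il11, chr7:4778092-4778391, minus strand: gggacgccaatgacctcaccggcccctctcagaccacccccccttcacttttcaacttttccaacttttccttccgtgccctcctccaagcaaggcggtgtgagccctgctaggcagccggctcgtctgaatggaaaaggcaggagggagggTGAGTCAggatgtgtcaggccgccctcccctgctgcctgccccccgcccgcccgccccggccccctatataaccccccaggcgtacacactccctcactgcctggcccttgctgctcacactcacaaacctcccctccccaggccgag
Lif, chr11:4257318-4257617, plus strand: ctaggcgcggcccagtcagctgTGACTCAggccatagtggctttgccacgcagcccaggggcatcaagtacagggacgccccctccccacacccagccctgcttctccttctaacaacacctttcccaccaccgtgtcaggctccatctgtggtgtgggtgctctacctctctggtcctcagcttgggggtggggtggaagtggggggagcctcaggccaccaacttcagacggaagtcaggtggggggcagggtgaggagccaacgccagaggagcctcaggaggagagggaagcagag
Relative to the annotated start, which lies 250 bases into each window, the kappaB match lay at -154 in Csf1 and the AP-1 match at -98 in Il11 and at -228 in Lif. RefSeq gives Il11 another window at chr7:4782808-4783107, at the outer end of the gene, and it held none of the 4 motifs searched. The Il11 window printed lies inside the gene's annotated span, at the downstream start. Across 32851 promoter windows of this length, 4.51% held the kappaB motif and 7.81% the AP-1 motif. Promoter windows were scanned for 7 of the 10 genes, and none held the STAT motif (TTCNNNGAA), which 8.3% of all windows held. A match describes the letters and shows no binding.

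AU-rich elements were searched as TTATTTATT on the transcript strand of the 3′ untranslated regions in the GENCODE annotation of GRCm38. Il11 held 5 matches in 1194 bases, Csf2 4 in 317 bases and Lif 2 in 3180 bases, and the other 7 genes held none. Of 20952 such regions, 7.68% held a match, and among regions within 20% of the same length the share was 8.5% for Il11, 2.43% for Csf2 and 14.7% for Lif. The sites below stand for the 3 genes with a match, with the element in capitals, and matches in Il11 and Csf2 overlap one another.
Il11, chr7:4773502-4773522, minus strand: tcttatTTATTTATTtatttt
Il11, chr7:4773365-4773385, minus strand: ttatacTTATTTATTtaaaca
Il11, chr7:4773242-4773262, minus strand: cctacaTTATTTATTaaacga
Csf2, chr11:54247329-54247349, minus strand: atttatTTATTTATTtattta
Lif, chr11:4272043-4272063, plus strand: gggcctTTATTTATTatttaa
Lif, chr11:4272406-4272426, plus strand: ttatttTTATTTATTcaatgt
Since Ago2 acts through microRNAs, the same regions were searched for CTACCTC, the match to the let-7 seed. Il1a alone of the 10 held it, at chr2:129300225-129300243 on the minus strand, and 9.06% of all regions did.
let-7a, seed in capitals: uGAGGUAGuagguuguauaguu
Il1a site, seed match in capitals: tctttcCTACCTCagtggg

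Comparison of the genotypes asked whether loss of Ago2 changed the cytokine output of the tumor cells themselves, in the absence of host cells. None of the 6 tested cytokines was called by edgeR's quasi-likelihood test, the threshold being an adjusted p of 0.05 and the values 0.592 to 0.983. In the same test 42 of 14228 genes (0.295%) passed, 0.0773% of all tested genes being higher and 0.218% lower in ΔAgo2. At an unadjusted p under 0.05, 1 of the 6 (Il33, lower in ΔAgo2) was found, against 7.34% of all tested genes. DESeq2 gave an adjusted p to 4 of these 6 and called 0 of them, against 2.23% of all genes it adjusted. It also gave one to Csf2, which it did not call. The wild-type and ΔAgo2 libraries overlapped for every one of the 6, where 6.07% of all tested genes had no overlap, 3.09% with ΔAgo2 above and 2.98% with it below. Of the 6, 4 had a log2 fold change above 0 and their median was 0.079, beside 41.2% above 0 and a median of -0.108 over all tested genes. Without wild-type replicate 4 the median of the 6 turned to -0.12, and without wild-type replicate 1 it was 0.44. A p that misses the threshold does not show equal levels. Each interval below is that of the fit to all libraries, and leaving out a library can move the estimate outside it, as for Il33.

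**Figure D1:**
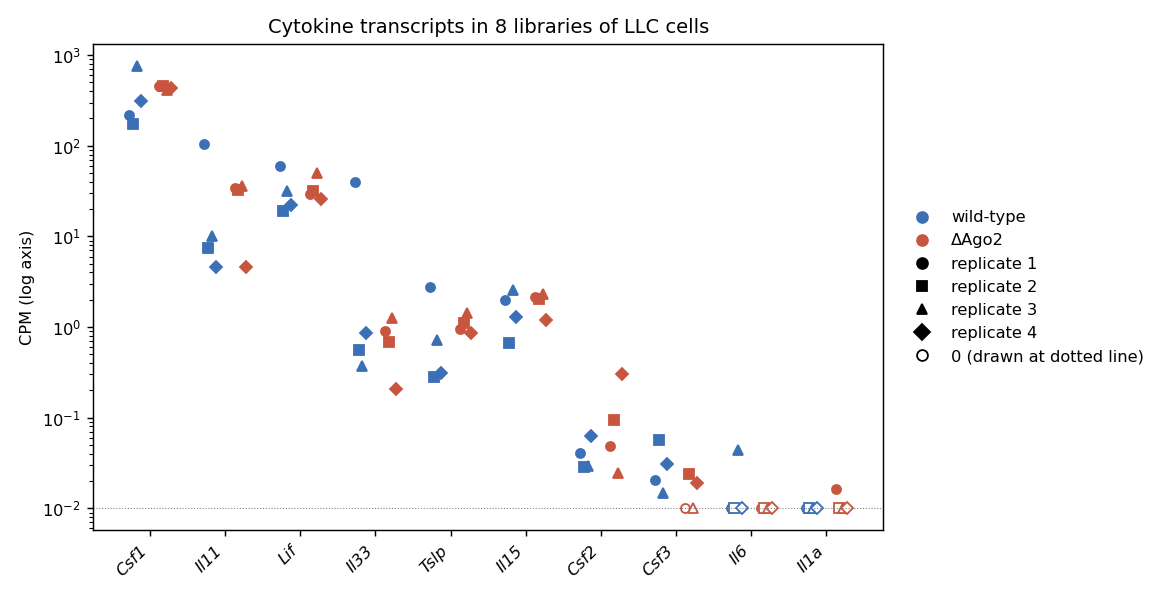
CPM (counts scaled by library size, log axis) of the 10 cytokine genes in each of the 4 wild-type (blue) and 4 ΔAgo2 (red) libraries, with a marker shape per replicate number and open markers at the dotted line for 0. Csf1 sits highest in both genotypes, Il11 and Il33 are far higher in wild-type replicate 1 than in the other wild-type libraries, and Il6 and Il1a are at 0 in 7 of 8 libraries.

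Among the colony-stimulating factors, Csf1 (chromosome 3 of GRCm38, the build of all gene positions given here, 107741048 to 107760469, minus strand) was by far the most abundant transcript. It was measured at 221.0, 171.9, 757.1 and 308.4 CPM in wild-type replicates 1 to 4, and at 455.4, 461.3, 414.3 and 438.8 CPM in ΔAgo2 replicates 1 to 4. Wild-type replicate 3 exceeded every ΔAgo2 library while the other 3 wild-type libraries lay below all of them. Wild-type libraries averaged 364.6 ± 267.7 CPM and ΔAgo2 libraries 442.5 ± 21.05 CPM (SD, n = 4 per genotype), and the log2 fold change was 0.28 (SE 0.43, 95% interval -0.68 to 1.24, adjusted p = 0.884). Without wild-type replicate 3 the log2 fold change was 0.92 (adjusted p = 0.359), and over 23 alternatives the adjusted p ran from 0.205 to 0.984. Per length, Csf1 reached 219.4 ± 181.2 TPM in wild-type and 300.4 ± 26.96 TPM in ΔAgo2, rank 655 and 454 of 55487 genes.

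Agreement between the ΔAgo2 libraries was close for Csf1. Its SD of log2 CPM was 0.07 there, lower than for all but 4.71% of tested genes, beside a median of 0.23 over all tested genes. In wild-type libraries its SD was 0.93, beside a median of 0.78. The difference in spread was not tested.

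Csf2 (chromosome 11, 54247271 to 54249667, minus strand) was counted 2 times in each wild-type library and 3, 4, 1 and 16 times in the ΔAgo2 libraries. Only ΔAgo2 replicate 4 rose clearly above the floor of 3 counts, at 0.30 CPM. Csf3 (chromosome 11, 98701263 to 98703629, plus strand) had 1, 4, 1 and 1 counts in wild-type and 0, 1, 0 and 1 in ΔAgo2. The floor of 3 counts equals 0.0425 to 0.0931 CPM depending on the library, so neither transcript could be compared reliably at this depth, and the floor covers counting error only. DESeq2, run without the filter on low counts, gave Csf2 a log2 fold change of 1.64 (adjusted p = 0.673), with most counts from ΔAgo2 replicate 4. An antisense gene model, Gm12223, overlaps Csf2, and the strand setting of the counting is not given in the sources used here, so reads of the pair cannot be told apart.

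Within the interleukin-6 family, Il11 (chromosome 7, 4772373 to 4782859, minus strand) was variable in both genotypes. Its CPM was 104.2, 7.548, 10.22 and 4.562 in wild-type replicates 1 to 4, and 34.30, 32.17, 36.14 and 4.614 in ΔAgo2 replicates 1 to 4. Wild-type replicate 1 was 10.2-fold above the next wild-type library, and ΔAgo2 replicate 4 was 6.97-fold below the next ΔAgo2 library. The log2 fold change was -0.24 (SE 0.96, 95% interval -2.37 to 1.89, adjusted p = 0.962). Without wild-type replicate 1 it turned to 1.85 (adjusted p = 0.494), and over its 22 alternatives the adjusted p ran from 0.494 to 0.999. The SD of log2 CPM was above that of 97.5% of tested genes in wild-type and 99.5% in ΔAgo2 libraries. The AU-rich matches shown above lie in this transcript, and whether they bear on its spread was not tested.

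Lif (chromosome 11, 4257557 to 4272514, plus strand), which maintains mouse embryonic stem cells, was steadier. It was measured at 59.34, 19.07, 31.88 and 22.25 CPM in the wild-type libraries and at 29.60, 31.34, 50.40 and 25.94 CPM in those of ΔAgo2. Wild-type replicate 1 was again the highest of all 8, and the remaining libraries of both genotypes interleaved. Averages were 33.14 ± 18.30 and 34.32 ± 10.95 CPM (SD, n = 4 per genotype), and the log2 fold change was 0.05 (SE 0.39, 95% interval -0.82 to 0.92, adjusted p = 0.983). Il6 (chromosome 5, 30013114 to 30019981, plus strand) was not detectable at this depth, with 3 counts in wild-type replicate 3 and 0 in the other 7 libraries.

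Il33 (chromosome 19, 29925114 to 29960718, plus strand) gave the one unadjusted p under 0.05, and it rested on 1 library. Its counts were 1952, 39, 25 and 28 in wild-type and 56, 29, 52 and 11 in ΔAgo2 replicates 1 to 4. Wild-type replicate 1, at 39.67 CPM, was 45.7-fold above the next wild-type library, and 2 of 14228 tested genes (0.0141%), Il33 included, stood at least as far out in that library. The remaining 3 wild-type libraries, at 0.37 to 0.87 CPM, fell inside the ΔAgo2 range of 0.21 to 1.27 CPM. The log2 fold change was -3.75 (SE 1.46, p = 0.0273, adjusted p = 0.592 in edgeR's quasi-likelihood test), and the two-sided exact permutation test gave p = 0.629, where the smallest possible is 0.0286. Without wild-type replicate 1 the log2 fold change was 0.38 (adjusted p = 0.866), and over its 19 alternatives the adjusted p ran from 0.211 to 0.979. DESeq2 set Il33 and Il11 aside through its outlier cutoff and gave no p for either.

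Il1a (chromosome 2, 129299610 to 129309972, minus strand), the other interleukin-1 family gene of the 10, had 1 count in ΔAgo2 replicate 1 and 0 in the other 7 libraries, and a gene model on the opposite strand, Gm14023, overlaps it.

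Il15 and Tslp were low in every library. Il15 (chromosome 8, 82331632 to 82403222, minus strand) was at 1.971, 0.6655, 2.569 and 1.303 CPM in the wild-type libraries and at 2.132, 2.066, 2.303 and 1.210 CPM in those of ΔAgo2. Both ΔAgo2 extremes lay inside the wild-type range, and the log2 fold change was 0.24 (SE 0.47, 95% interval -0.81 to 1.29, adjusted p = 0.913). Il15 is also in the study's interferon signature, a list chosen by the study rather than independent evidence. Tslp (chromosome 18, 32815383 to 32819797, plus strand) was at 2.744, 0.2832, 0.7127 and 0.3103 CPM in the wild-type libraries and at 0.9438, 1.116, 1.445 and 0.8698 CPM in those of ΔAgo2. Wild-type replicate 1 was the highest of the 8 and the other 3 wild-type libraries lay below every ΔAgo2 library, with a log2 fold change of 0.11 (SE 0.70, 95% interval -1.44 to 1.65, adjusted p = 0.977). Without wild-type replicate 1 the log2 fold change of Tslp was 1.31 (adjusted p = 0.559, the lowest of its 23 alternatives, which reached 0.996). A gene model on the opposite strand, 4930455D15Rik, overlaps Tslp.

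**Figure D2:**
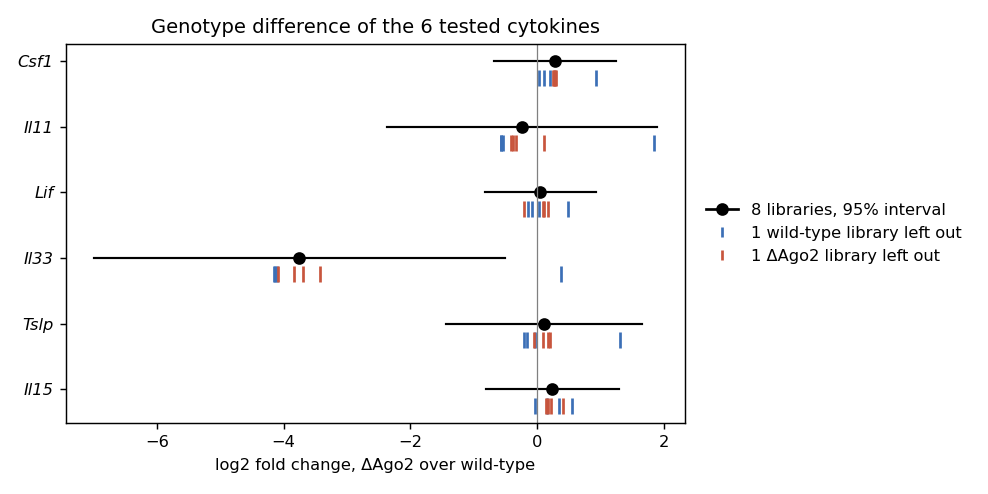
Log2 fold change (ΔAgo2 over wild-type) of the 6 tested cytokines, with black points and bars for the estimate and 95% interval over 8 libraries, and ticks for the estimate with 1 wild-type (blue) or 1 ΔAgo2 (red) library left out. Il33 moves from -3.75 to 0.38 and Il11 from -0.24 to 1.85 when wild-type replicate 1 is left out.

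The extreme values of the tested cytokines sat in a few libraries. Wild-type replicate 1 was the highest of all 8 libraries for 4 of the 6 tested cytokines (Il11, Il33, Lif and Tslp), while 10.2% of all tested genes were highest there. Wild-type replicate 3 was the highest for the other 2 (Csf1 and Il15), against 20.4% of all tested genes. Wild-type replicate 2 was the lowest of the 8 for 4 of the 6, against 12.6% of all tested genes, and ΔAgo2 replicate 4 was the lowest ΔAgo2 library for 5 of the 6, against 26.8%. In wild-type replicate 1 the summed leukocyte markers were at 95.4 TPM, of which Cd68 gave 94.05 TPM, and Cd68 gave 94.61 TPM in wild-type replicate 3. Lyz2, the other tested leukocyte marker, was lowest of the 8 in wild-type replicate 1, at 1.19 TPM. It was highest in wild-type replicate 3, at 6.30 TPM. The part of leukocyte markers in these cytokine values was not tested.

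**Figure D3:**
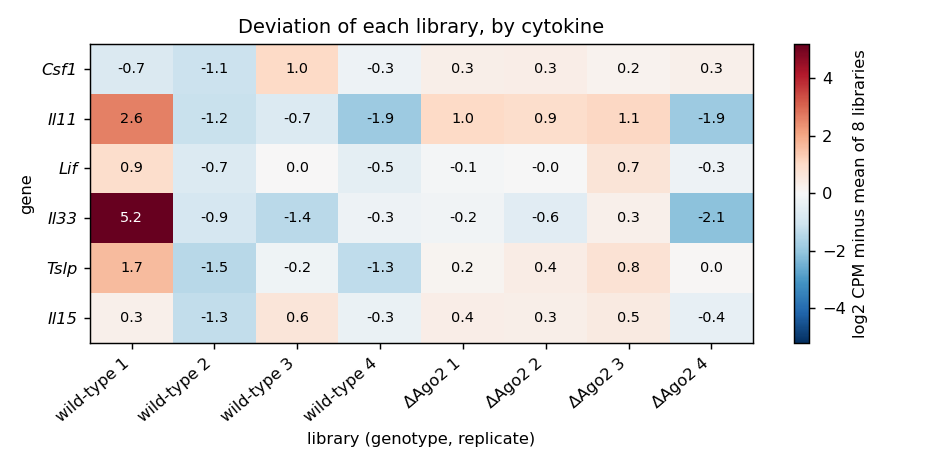
Log2 CPM of each tested cytokine (rows) in each library (columns) minus the gene's mean over the 8 libraries, with red above and blue below the mean and the value printed in each cell. Wild-type replicate 1 is above the mean for 5 of the 6 genes, and below it for Csf1.

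The receptors for these ligands fell into those the LLC cells expressed and those at the floor. Of 21 receptor genes, 13 were tested and 0 passed the adjusted threshold, the smallest adjusted p being 0.0991, while DESeq2 called 3 of them (Il6ra, Lifr and Osmr), against 2.23% of all genes it adjusted. At an unadjusted p under 0.05, 3 were higher in ΔAgo2 and 2 lower, where 2.72% and 4.62% of all tested genes were. The receptor chains for colony-stimulating factors were nearly silent, with at most 8 counts for Csf1r, 3 for Csf2ra, 2 for Csf2rb, 1 for Csf2rb2 and 1 for Csf3r in any library. Il7r, the partner chain of the TSLP receptor, had at most 2 counts and Il2rg, the common gamma chain used by interleukin-15, at most 5. Crlf2, the TSLP-binding chain, was at 5.75 to 8.39 TPM in wild-type and 9.65 to 12.86 TPM in ΔAgo2 libraries (log2 fold change 0.46, adjusted p = 0.778). Its groups did not overlap in TPM but did in CPM, at 2.45 to 5.648 CPM in wild-type and 4.263 to 5.295 CPM in ΔAgo2.

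Among the chains that bind gp130 cytokines, Il6ra, the interleukin-6 binding chain, was at 6.66, 14.02, 2.96 and 4.97 TPM in wild-type and 26.84, 22.75, 17.67 and 19.25 TPM in ΔAgo2 libraries. Every ΔAgo2 library lay above every wild-type library (log2 fold change 1.44, SE 0.39, adjusted p = 0.284 by edgeR's quasi-likelihood test, 0.0175 to 0.68 over 23 alternatives). Lifr, the LIF-binding chain, was at 0.59, 0.35, 3.17 and 0.27 TPM in wild-type and 0.11, 0.06, 0.04 and 0.02 TPM in ΔAgo2 libraries. Here every wild-type library lay above every ΔAgo2 library (log2 fold change -4.34, SE 0.88, adjusted p = 0.0991), and over 21 alternatives the adjusted p ran from 4.11e-06 to 0.823. Lifr counts were 102, 68, 672 and 43 in wild-type and 20, 7, 5 and 4 in ΔAgo2 replicates 1 to 4. Most of the ΔAgo2 counts lay near the floor of 3, so the size of the fold change is uncertain. Without wild-type replicate 3 the log2 fold change of Lifr was -3.04, and over the alternatives it ran from -4.89 to -0.80, the last on log2(TPM + 1) with no filter. Osmr, the oncostatin M receptor chain, overlapped between groups, at 0.64 to 3.95 TPM in wild-type and 0.70 to 0.88 TPM in ΔAgo2 (log2 fold change -1.70, SE 0.52, adjusted p = 0.39). For both genes wild-type replicate 3 was the highest library. The shared chain Il6st (gp130) was at 16.27 to 63.89 TPM in wild-type and 44.82 to 74.71 TPM in ΔAgo2 (adjusted p = 0.816), and Il11ra1 at 2.55 to 9.64 and 2.06 to 3.54 TPM (log2 fold change -1.22, adjusted p = 0.681). Without wild-type replicate 4 the log2 fold change of Il11ra1 was -0.30.

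Among the receptors of the interleukin-1 family, Il1rap, the accessory chain of the interleukin-1 and interleukin-33 receptors, was at 11.87, 4.10, 7.84 and 0.93 TPM in wild-type and 20.01, 15.70, 18.02 and 14.71 TPM in ΔAgo2 libraries, with no overlap (log2 fold change 1.33, SE 0.55, adjusted p = 0.637). The log2 fold change of Il1rap was 1.93 without wild-type replicate 1 and 1.02 without wild-type replicate 4. Over 23 alternatives it ran from 0.936 to 1.93, and the adjusted p from 0.165 to 0.975. The decoy receptor Il1r2 was at 0.05 to 0.87 TPM in wild-type and 0.98 to 2.62 TPM in ΔAgo2, also without overlap (log2 fold change 1.81, SE 0.71, adjusted p = 0.593). The signaling receptor Il1r1 was at 19.24 to 87.56 and 51.14 to 64.25 TPM (log2 fold change 0.08, adjusted p = 0.963). Il1rl1, which encodes the interleukin-33 receptor ST2, was at 164.21, 44.81, 1.14 and 5.34 TPM in wild-type and 30.71, 25.47, 55.57 and 16.71 TPM in ΔAgo2 libraries, so that wild-type replicate 1 was the highest for ligand and receptor alike (log2 fold change -0.89, adjusted p = 0.844, turning to 0.94 without that library). Sigirr, a negative regulator of this family, had the highest mean of the list at 76.4 TPM (log2 fold change -0.15, adjusted p = 0.971, turning to 1.05 without wild-type replicate 4). Of the interleukin-15 receptor chains, Il15ra was at 1.13 to 9.44 TPM over the 8 libraries (adjusted p = 0.852) and Il2rb at 0.18 to 2.79 TPM (log2 fold change -1.17, adjusted p = 0.761). The log2 fold change of Il2rb was -0.0655 without wild-type replicate 3 and -2.06 without ΔAgo2 replicate 3.

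**Figure D4:**
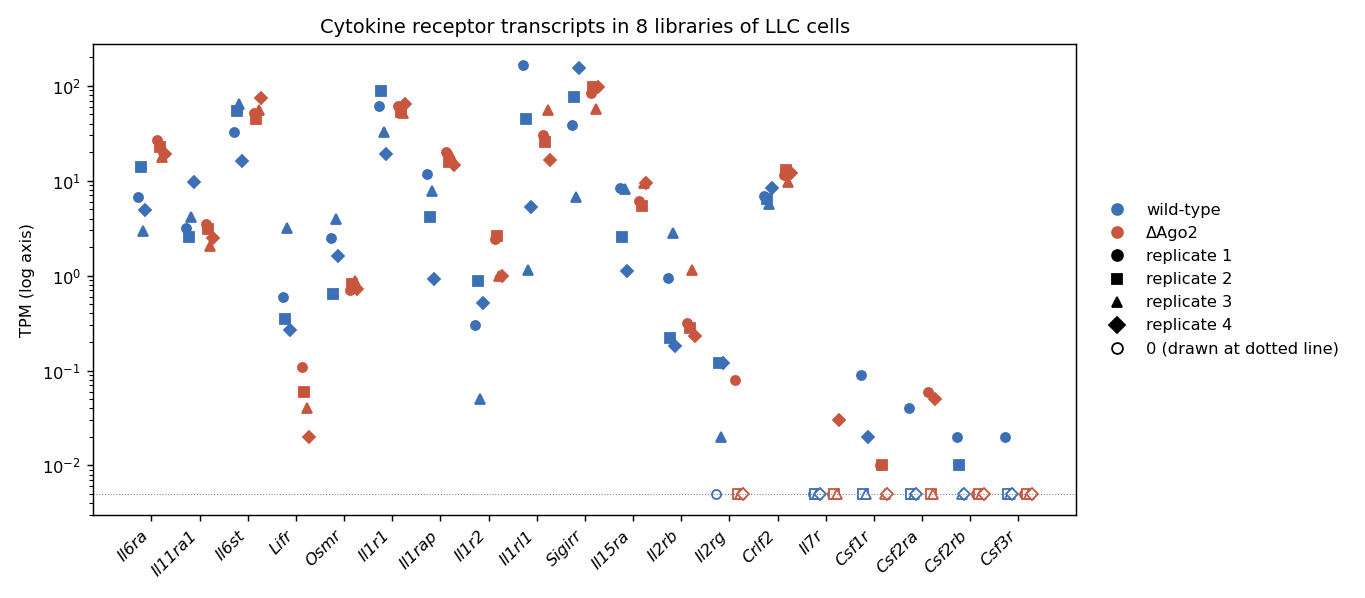
TPM (log axis) of the receptor genes in each wild-type (blue) and ΔAgo2 (red) library, with a marker shape per replicate number and open markers at the dotted line for 0. Il6ra, Il1rap, Il1r2 and Crlf2 lie higher in all 4 ΔAgo2 libraries, though Crlf2 overlaps in CPM. Lifr lies lower in them, and the colony-stimulating factor receptors and Il7r sit at or near 0.

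Other ligands of the same families were mostly silent. Of 28 listed, 24 were in the table, 9 were tested and none passed the adjusted threshold, and 13 of the 15 below the filter were at or under 3 counts in every library. The 3 with an unadjusted p under 0.05 were Il18, Cntf and Il7, where 7.34% of all tested genes had one. Il18 was at 4.578 ± 2.048 TPM in wild-type and 12.08 ± 4.209 TPM in ΔAgo2 (log2 fold change 1.16, adjusted p = 0.618 in edgeR's quasi-likelihood test). Cntf, the ciliary neurotrophic factor, had a log2 fold change of 1.71 (adjusted p = 0.57) and Il7 of -1.56 (adjusted p = 0.613), both at under 2 TPM in every library. Kitl, the stem cell factor, was the most abundant of the list at a mean of 160 TPM.

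Regulators of these cytokines gave no call at the adjusted threshold either. Of 10 tested genes for processing and release of the interleukin-1 family, 2 had an unadjusted p under 0.05, against 7.34% of all tested genes. The inflammasome sensor Nlrp3 had a log2 fold change of 1.79 (adjusted p = 0.664 in edgeR's quasi-likelihood test) and the inflammatory caspase Casp4 of -1.83 (adjusted p = 0.592). The most abundant gene on this chosen list was S100a10, at a mean of 955 TPM. Its part in such release was not tested, so its level does not measure the release machinery. Without wild-type replicate 1 the log2 fold change of Nlrp3 was 3.21 (adjusted p = 0.0778, the lowest of its 23 alternatives, which reached 0.975), and without wild-type replicate 3 that of Casp4 was -1.03. Of 16 tested genes for decay and stabilization of cytokine mRNAs, which include the AU-rich element binding proteins, 0 had an unadjusted p under 0.05, and their median log2 fold change was 0.12 beside -0.108 for all tested genes, and -0.00555 beside -0.0369 without wild-type replicate 4. Zfp36l2, a destabilizing protein of this kind, was the most abundant at a mean of 444 TPM.

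Of 23 tested inducers of cytokine transcription, 2 were higher and 2 lower in ΔAgo2 at an unadjusted p under 0.05, against 2.72% and 4.62% of all tested genes. Cebpd, a C/EBP factor, was at 6.55, 4.00, 16.24 and 9.71 TPM in wild-type and 3.54, 3.48, 3.25 and 2.68 TPM in ΔAgo2 libraries, with no overlap (log2 fold change -1.76, SE 0.47, adjusted p = 0.284 in edgeR's quasi-likelihood test, 0.0153 to 0.719 over 23 alternatives). Its relative Cebpa overlapped (log2 fold change -2.05, adjusted p = 0.507), and without wild-type replicate 4 its log2 fold change was -0.67. The AP-1 subunit Fosb (log2 fold change 1.23, adjusted p = 0.618) and the immediate early gene Egr1 (1.03 on the log2 scale, adjusted p = 0.438) had all 4 ΔAgo2 libraries above every wild-type library. Atf4, a stress-responsive factor, was the most abundant of the list at a mean of 786 TPM.

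Of 18 tested genes of the gp130 and STAT response, 3 had a log2 fold change above 0 and the median was -0.27, beside 41.2% above 0 and -0.108 over all tested genes. The median was -0.179 beside -0.0369 without wild-type replicate 4, and -0.38 beside -0.0988 without wild-type replicate 1. Stat5a, a transcription factor downstream of several of these receptors, had a log2 fold change of -1.01 (adjusted p = 0.656 in edgeR's quasi-likelihood test), the one unadjusted p under 0.05 of the list, against 7.34% of all tested genes. Without wild-type replicate 4, its highest library, the log2 fold change of Stat5a was -0.507. Myc was its most abundant gene at a mean of 692 TPM.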

How the data were processed

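RNA-seq of 4 wild-type and 4 ΔAgo2 LLC libraries was read through the genotype and replicate number in each label. The authors aligned paired-end reads to ribosomal RNA and then to mm10 (STAR per the submitters' processing notes) and counted them with featureCounts. They deposited raw counts per gene, without normalization, and TPM, which scale counts by gene length and library total. The annotation release and strand setting are not given in the sources used here. Symbols came from GENCODE identifiers, and 93 identifiers had none.

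After filterByExpr and TMM scaling, 14228 genes entered the quasi-likelihood test of edgeR (version 4.0.16, under R 4.3.3), which was two-sided, had genotype as its sole term and used Benjamini-Hochberg adjustment. CPM are counts over TMM-scaled library sizes, and overlap between groups was read on CPM. Log2 CPM used a prior count of 2. Intervals are 95% intervals of the fit. Permutation tests were exact over 70 splits. The fit was tested on simulated data. Alternatives used DESeq2 1.42.0 and limma 3.58.1.

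The genes, by symbol, and the 6 lists were chosen with earlier results of these data known. Named are the 10 cytokines, their receptor subunits, Ago2, and from each list the genes with an unadjusted p under 0.05 and the gene with the highest mean TPM. GC correction and DESeq2 without its outlier cutoff were added after seeing the data. The result for 1 marker gene is not reported here.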

Additional observations from a re-analysis of the deposited data

Results flagged for a closer look

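For each named and tested gene, the distance from the highest or lowest library to its nearest neighbour, as a share of the whole range of log2 CPM in that genotype, was set against Dixon's 95% critical value for 4 libraries. Of 70 groups examined, 5 exceeded it, and chance flags about 1 in 20. All 5 were in ΔAgo2 libraries. Il11 was low in replicate 4 (gap over range 0.943, with 2108, 1355, 1475 and 244 counts in replicates 1 to 4). Il15 was low in replicate 4 (0.83, with 131, 87, 94 and 64 counts). Cebpd was low in replicate 4 once scaled by library size (0.898, with 216, 151, 147 and 150 counts). Its CPM was 3.515, 3.585, 3.601 and 2.836 in replicates 1 to 4, a small step beside 3 close values. Cntf was low in replicate 2 (0.834, with 27, 13, 18 and 22 counts). Il2rb, a receptor chain for interleukin-15, was high in replicate 3 (0.864, with 22, 14, 59 and 15 counts). Il33 in wild-type libraries, with its high replicate 1, reached 0.826 and stayed just under the critical value.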

How the results depend on the processing

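No cytokine was called under any alternative that gave it an adjusted p, which were 19 of 23 alternatives for Il33, 22 for Il11 and 23 for Csf1, Il15, Lif and Tslp. The count over all tested genes moved from 42 to 143 with no filter on low counts, 6 with a CPM of at least 1 in 4 libraries, 18 with the replicate number as a block, 399 with DESeq2, 257 with limma-voom with sample weights, 3 with limma on log2(TPM + 1), 10 on log2(TPM + 0.1) and 16 on log2(TPM + 1) with no filter. It ran from 1 to 113 when 1 library was left out, the lowest without ΔAgo2 replicate 1 and the highest without wild-type replicate 4. Of the alternatives chosen after seeing the data, GC correction gave 68, GC correction with the replicate block 68 and DESeq2 without its outlier cutoff 405. Same-numbered libraries showed no common deviation (correlations -0.138, -0.0491, 0.384 and 0.0278, and 1 of 8 libraries closest to its own number). No pairing by number was seen, but so few libraries cannot exclude one. Log2 fold changes that turned in sign were as follows, and the cause was not tested. With GC correction, the values were Tslp -0.24, Il1r1 -0.28 and Sigirr 0.31. With GC correction and the replicate block, the values were Il11 0.60, Il1r1 -0.19 and Sigirr 0.85. With library size alone, the values were Sigirr 0.0962 and S100a10 0.0727. With limma on log2(TPM + 0.1), the values were Il11 0.78, Il1rl1 0.97, Sigirr 0.97, Kitl 0.54, S100a10 0.16 and Myc 0.0894. With limma on log2(TPM + 1), the values were Il11 0.74, Il1rl1 0.76, Sigirr 0.93, Kitl 0.52, S100a10 0.16 and Myc 0.0891. With limma on log2(TPM + 1), no filter, the values were Il11 0.74, Il1rl1 0.76, Sigirr 0.93, Kitl 0.52, S100a10 0.16 and Myc 0.0891. With limma-voom, the values were Il11 0.55, Il1rl1 0.80, Sigirr 0.83 and Kitl 0.32. With the replicate block, the values were Il11 0.63, Il1rl1 0.38, Sigirr 0.73 and Kitl 0.24. With limma-voom and sample weights, the values were Lif -0.38, Tslp -0.25, Il1r1 -0.15, Sigirr 1.27, Il15ra -0.11 and S100a10 0.11. With 1 library left out, the ranges that held both signs were Ago2 -0.0473 to 0.603, Il11 -0.571 to 1.85, Il15 -0.0345 to 0.558, Il1r1 -0.103 to 0.324, Il1rl1 -1.34 to 0.944, Il33 -4.15 to 0.381, Kitl -0.502 to 0.139, Lif -0.2 to 0.495, Myc -0.561 to 0.323, S100a10 -0.128 to 0.0836, Sigirr -0.532 to 1.05 and Tslp -0.208 to 1.31. Il33 turned without wild-type replicate 1 (0.38), Ago2 without wild-type replicate 4 (-0.0473) and Il15 without wild-type replicate 2 (-0.0345). Il11 turned without wild-type replicate 1 (1.85) or ΔAgo2 replicate 4 (0.116). Lif turned without wild-type replicate 2 (-0.149) or 4 (-0.0825) or ΔAgo2 replicate 3 (-0.2), and Tslp without wild-type replicate 2 (-0.208), 3 (-0.0304) or 4 (-0.157) or ΔAgo2 replicate 3 (-0.0527). Some genes that missed the adjusted threshold passed it elsewhere: Lifr and Il6ra with DESeq2 and with sample weights, Lifr also with no filter and with GC correction, Osmr with DESeq2 and without wild-type replicate 2, Cebpd with DESeq2, and Fosb with sample weights. The median of all tested genes, -0.108, was 0.0209 with the block, 0.0327 with limma-voom and 0.187 on log2(TPM + 1). Across the settings the receptor list held 3 to 8 genes at an unadjusted p under 0.05, against 5 in the reported fit. For the cytokines the count ran from 0 to 2, against 1 in the reported fit. It was 2 without wild-type replicate 1, without wild-type replicate 3 and with sample weights. Depth limits Il6, Il1a, Csf2 and Csf3, whose counts were at or near 3 in nearly all libraries.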
